A study of Mustela putorius furo and Mus musculus with 4 samples.

Results

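GABA is the main inhibitory transmitter of the mature cortex, and astrocytes take it up, break it down and sense it. GABA enters the cell through sodium-coupled transporters, is converted in mitochondria by GABA transaminase and succinic semialdehyde dehydrogenase, and can also be made from putrescine in a route that includes monoamine oxidase B. It is sensed by GABA-A receptors, which are chloride channels assembled from several subunits, and by GABA-B receptors, which are G protein-coupled receptors that need both of their subunits. The expression of 9 genes of this system, taken by name from the 13373 gene symbols shared by ferret and mouse, was compared between cultured astrocytes of these species. They were Slc6a11, Abat, Aldh5a1, Maob, Gabbr1, Gabbr2, Gabra2, Gabrb1 and Gabrg1, and each of the 9 had a single value per library in both species.

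The data were 4 libraries of polyA-selected RNA, with 2 from each species. The astrocytes came from the cerebral cortices of sable ferrets on postnatal day 1 and of ICR mice on postnatal days 1 to 3, were grown for 14 days as mixed glia in serum, shaken and replated, and both species were moved before harvest to a serum-free medium that held heparin-binding EGF-like growth factor. The cortices of a single ferret pup were spread over several flasks, whereas the cortices of several mouse pups shared a flask. Nothing says that the duplicates came from separate cultures, so their spread (a median absolute log2 difference of 0.085 for ferret and 0.07 for mouse) may be technical, and species, genome annotation and culture cannot be told apart in this design. The values are FPKM, fragments per kilobase of exon relative to all mapped fragments, with each species on its own gene models. The FPKM values hold no counts and read counts were not used here, so depth enters only relative to the duplicate. It was inferred from the most common ratio of replicate 1 to replicate 2 among low FPKM values, taken to stand for equal fragments. That ratio was 0.853 for ferret, held by 213 of 929 low values, and 1.199 for mouse, held by 211 of 3870. Gfap, the intermediate filament that marks astrocytes, stood at 1481 and 1522 FPKM in the ferret libraries, against 1429 and 1546 in the mouse libraries. Another defining marker, the glutamate transporter gene Slc1a2, was near 0 in ferret astrocytes, at 0.1325 and 0.178 FPKM, and stood at 47.1 and 51.8 FPKM in mouse astrocytes.

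The GABA-A subunit genes Gabrb1 and Gabra2 were 15-fold and 9.54-fold higher in mean FPKM in mouse astrocytes. The breakdown genes Aldh5a1 and Abat were 2.18-fold and 1.51-fold higher in ferret astrocytes. The GABA-B subunit gene Gabbr1 was 1.90-fold higher in mouse astrocytes, while Gabbr2 was at most 0.245 FPKM in all 4 libraries and its difference did not pass the test. In bulk RNA, fewer cells of a type and less RNA per cell cannot be told apart.

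**Figure D1:**
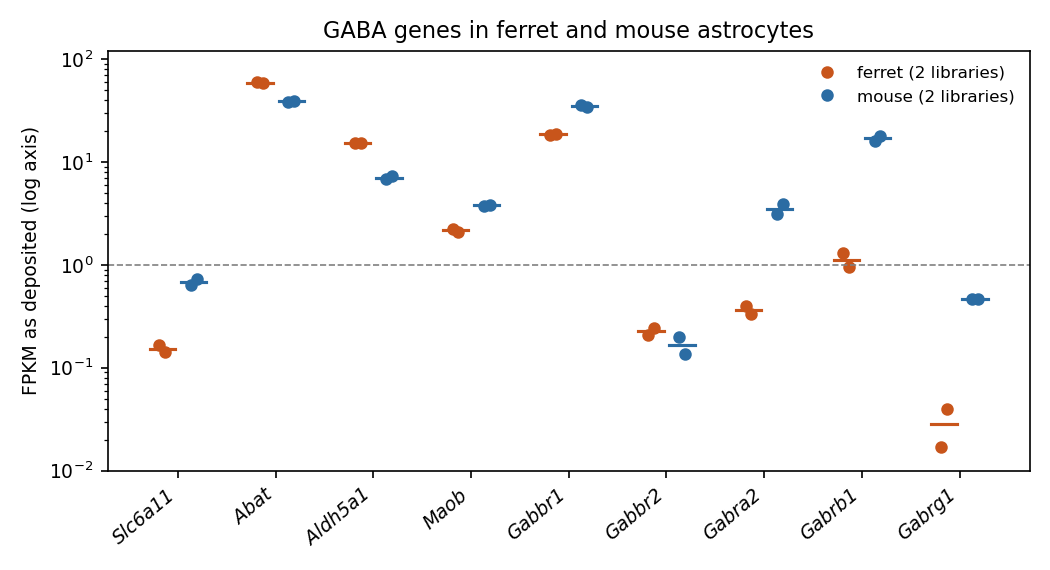
FPKM as deposited (log axis) of the 9 genes in the 2 ferret (orange) and 2 mouse (blue) libraries, with points for libraries and bars for means. The dashed line marks 1 FPKM, the limit used for testing. Abat and Aldh5a1 stand higher in ferret astrocytes, and the 3 GABA-A subunit genes at the right stand lower, with ferret Gabrg1 at 0.017 and 0.040.

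The species were compared by limma after a log2(FPKM + 1) transform, a scale that understates the change of low genes, over the 10204 genes with a mean of at least 1 FPKM in either species. Calls required an adjusted p (Benjamini-Hochberg) under 0.05 together with a log2 difference beyond 1 in size. The adjusted p alone separated little, since 88.6% of the tested genes passed it. Of the 9 genes, 6 entered this fit, 5 of them with a mean of at least 1 FPKM in both species. Gabra2 entered through its mouse level, so that a difference was built into its entry. Slc6a11, Gabbr2 and Gabrg1 were read from a fit of all 13373 symbols. With 2 libraries against 2, an exact permutation test of a single gene cannot go below a two-sided p of 0.333.

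In the fit of all symbols, 1 of the 9 genes was called higher in ferret astrocytes (Aldh5a1) and 2 were called lower (Gabra2 and Gabrb1), against 9.98% and 22.9% of all symbols. The same 3 genes were called in the fit of 10204 genes, where 13.1% of genes were called higher and 30.1% lower. At the adjusted p alone 8 of the 9 passed, 2 higher and 6 lower, where 75.2% of all symbols did. The ferret and the mouse libraries did not overlap in FPKM for any of the 9 genes, with 3 higher in ferret and 6 higher in mouse astrocytes. Of all shared symbols 86.1% were without overlap, 33.2% with ferret higher and 52.9% with ferret lower. The counts of the 9 genes were thus near those of genes at large. The median log2 difference of the 9 genes was -0.54 in the fit of all symbols, in which the median over all symbols was -0.11.

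The scale between species was uncertain. Over the 10204 genes the median log2 difference was -0.35 with FPKM as deposited. The limit of 1 FPKM was applied anew after each scaling. The median was 0.00 over 10209 genes once each library was rescaled to the mean sum of the shared symbols. It was 0.08 over 10233 genes once the libraries were quantile normalized. Among called genes, 30.3% were higher in ferret astrocytes with FPKM as deposited (1336 higher, 3069 lower), 47% after rescaling (1966 and 2215) and 50.2% after quantile normalization (2109 and 2090). None of the 9 genes changed the sign of its log2 difference under either scaling. Relative to the median of all tested genes, Gabrb1 stood at -2.73, Gabra2 at -1.37, Aldh5a1 at 1.37 and Abat at 0.94 on the log2 scale with FPKM as deposited.

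**Figure D2:**
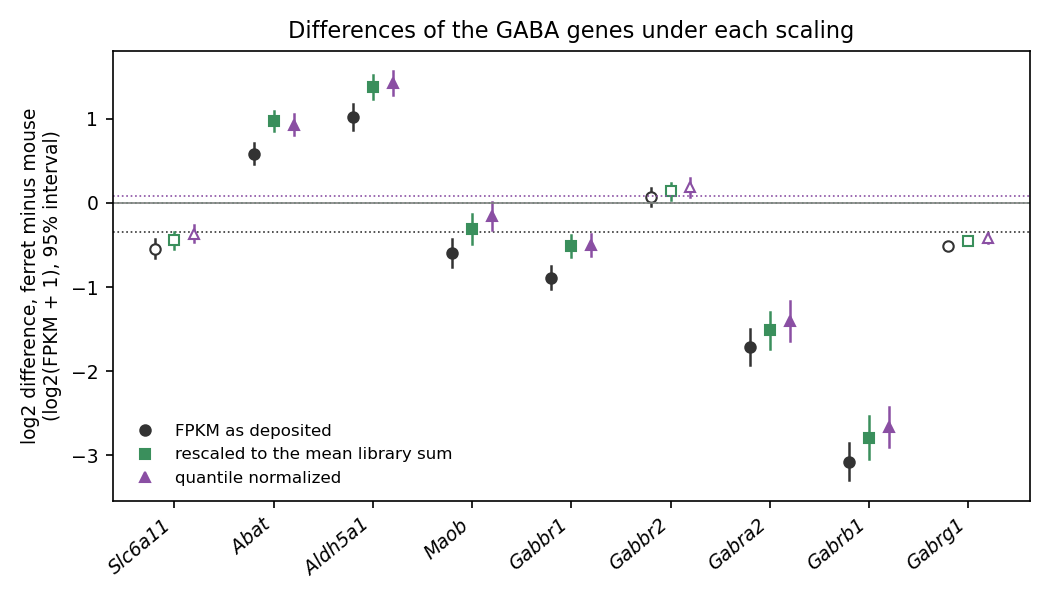
Log2 difference (ferret minus mouse, on log2(FPKM + 1)) of the 9 genes with 95% intervals from limma, for FPKM as deposited (circles), rescaled to the mean library sum (squares) and quantile normalized (triangles). Open symbols are the 3 genes read from the fit of all symbols, whose median was -0.11 with FPKM as deposited. Dotted lines are the medians of all tested genes and apply to the filled symbols only. Each gene stays on its side of 0, and 0 lies within the interval of Maob after quantile normalization and that of Gabbr2 with FPKM as deposited.

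Slc6a11 encodes GAT-3, a GABA transporter found mainly on astrocytes in the brain. It had 0.165 and 0.142 FPKM in the ferret libraries, against 0.633 and 0.732 FPKM in the mouse libraries. All 4 values were under 1 FPKM, and the mouse values were the higher ones. The log2 difference was -0.54 (95% interval -0.66 to -0.43, adjusted p = 0.00135 by limma over all symbols). The mouse gene is on the plus strand of chromosome 6 (GRCm38), at 114131241 to 114249952.

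Among the other transporters, Slc6a12 and Slc6a13 of the plasma membrane and the vesicular transporter Slc32a1 stood under 0.19 FPKM in all 4 libraries. Slc6a12 is listed at 0 in both ferret and Slc6a13 at 0 in both mouse libraries.

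Abat encodes GABA transaminase, which removes the amino group of GABA. It was the most abundant of the 9 genes in both species, with 59.7 and 57.8 FPKM in the ferret libraries, against 38.3 and 39.3 FPKM in the mouse libraries. Ferret and mouse values did not overlap. The log2 difference was 0.59 (SE 0.057, 95% interval 0.46 to 0.72, adjusted p = 5.10e-06 by limma), under the limit of 1. It was 0.97 after rescaling and 0.93 after quantile normalization. Among the shared symbols its percentile was 94.6 and 94.1 for ferret and 87.4 and 87.5 for mouse.

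Aldh5a1 encodes succinic semialdehyde dehydrogenase, which carries the product of Abat to succinate. It had 15.3 FPKM in both ferret libraries and 6.79 and 7.25 FPKM in the mouse libraries. Its log2 difference was 1.02 (SE 0.068, 95% interval 0.87 to 1.18, adjusted p = 2.60e-07 by limma), just past the limit of 1. It was 1.38 after rescaling and 1.42 after quantile normalization, and 0.98 without mouse replicate 1, where the call was lost. In percentiles, Aldh5a1 stood at 76.3 and 75.8 among the shared symbols of the ferret libraries and at 50.7 and 51.7 among those of the mouse libraries. The ratio of Abat to Aldh5a1 in FPKM, which a constant factor per library does not move, was 3.89 and 3.79 in ferret and 5.63 and 5.42 in mouse astrocytes.

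The mouse Abat gene lies on chromosome 16 from 8513429 to 8621568 (plus strand), and Aldh5a1 lies on chromosome 13 from 24907579 to 24937661 (minus strand). The exons of mouse Aldh5a1 share 796 bases with the antisense gene 4932702P03Rik and 203 bases with another transcript of the opposite strand. The library kit keeps the strand, but whether quantification used it is not given in the sources used here.

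Maob encodes monoamine oxidase B, an enzyme of the outer mitochondrial membrane that acts on acetylated putrescine on the way to GABA. It had 2.25 and 2.09 FPKM in ferret and 3.74 and 3.84 FPKM in mouse astrocytes, giving a log2 difference of -0.60 (SE 0.076, 95% interval -0.77 to -0.42, adjusted p = 3.90e-05 by limma). After quantile normalization it was -0.16 with an adjusted p of 0.0641 by limma. The percentiles were close, at 38.9 and 38.2 in ferret and 40.2 and 40.8 in mouse libraries. The related enzyme Maoa was more abundant than Maob in every library, with 24.8 and 29.4 FPKM in ferret and 25.7 and 26.7 FPKM in mouse astrocytes. Its log2 difference was 0.04 (95% interval -0.14 to 0.23, adjusted p = 0.630 by limma). After rescaling it was 0.42 (adjusted p = 0.000935 by limma). The mouse Maob gene lies on the X chromosome from 16709282 to 16817366 (minus strand).

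The other enzymes of the putrescine route did not move together. Odc1, ornithine decarboxylase, which makes putrescine, had 79.0 and 88.4 FPKM in ferret and 122 and 127 FPKM in mouse astrocytes (log2 difference -0.57, adjusted p = 2.16e-05 by limma). Sat1, which acetylates polyamines, was called lower in ferret astrocytes, at 39.02 and 36.1 against 80.7 and 76.3 FPKM (log2 difference -1.04, adjusted p = 1.37e-07 by limma). Aldh9a1, an aldehyde dehydrogenase that can form GABA from aminobutyraldehyde, was called higher, at 26.5 and 27.9 against 13.03 and 12.99 FPKM (log2 difference 1.01, adjusted p = 1.54e-07 by limma). Of these 3 genes and Maoa, 1 was higher and 2 were lower at the adjusted p, against 32.4% and 56.2% of the tested genes, with the call of Sat1 lost after rescaling (-0.66).

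Synthesis from glutamate is carried by Gad1 and Gad2, the glutamate decarboxylases known from inhibitory neurons. Gad1 had 1.83 and 2.04 FPKM in ferret and 0.340 and 0.296 FPKM in mouse astrocytes, giving a log2 difference of 1.15 (SE 0.080, adjusted p = 3.44e-07 by limma). It entered the fit through its ferret level. Gad2 stayed at or under 0.182 FPKM in all libraries. The list of 9 interneuron markers, which includes Gad1, Gad2 and Slc32a1, summed to 31.7 and 33.3 FPKM in ferret and 4.24 and 3.85 FPKM in mouse libraries, and 6 of its genes were higher in both ferret than in both mouse libraries, as were 33.2% of all shared symbols. Its most abundant gene in ferret astrocytes was Dlx1, a homeobox gene of the ventral forebrain, at 17.0 and 19.0 FPKM against 0.464 and 0.222 FPKM in mouse astrocytes, while Lhx6 and Npy were lower in ferret astrocytes. Dlx1 and Dlx2 (11.8 and 10.8 FPKM in ferret, 0.674 and 0.583 FPKM in mouse astrocytes) carried the difference in the sum, and the other 7 genes summed to 2.92 and 3.49 FPKM in ferret and 3.11 and 3.04 FPKM in mouse libraries. Rbfox3, which encodes the neuronal marker NeuN, is listed at 0 in one ferret library and stood at 0.035 FPKM in the other, against 0.067 and 0.084 FPKM in the mouse libraries. Of 6 measured markers of neurons in general, 4 entered the fit, and Dcx, Nefl and Syt1 were called higher in ferret astrocytes (13.1% of all tested genes). Dcx and Nefl entered through their ferret level, so that being higher was built into their entry. Nefl, a neurofilament gene, had 4.42 and 5.68 FPKM in ferret and 0.1375 and 0.092 FPKM in mouse astrocytes. Syt1, a synaptic vesicle gene, had 5.11 and 4.94 against 1.12 and 1.25 FPKM, and Dcx, a gene of immature neurons, had 1.66 and 1.25 against 0.015 and 0.041 FPKM. The part of neurons in the level of Gad1 was not tested.

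The GABA-B receptor forms from a subunit that binds GABA, Gabbr1, and one that couples to the G protein, Gabbr2. Gabbr1 had 18.4 and 18.5 FPKM in ferret and 35.8 and 34.2 FPKM in mouse astrocytes, with no overlap. The log2 difference was -0.89 (SE 0.060, 95% interval -1.02 to -0.75, adjusted p = 3.05e-07 by limma) and under the limit for a call. It was -0.51 after rescaling. Gabbr1 was the second of the 9 genes by FPKM in both species.

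Gabbr2 had 0.209 and 0.245 FPKM in ferret and 0.198 and 0.137 FPKM in mouse astrocytes. Its log2 difference was 0.07 (95% interval -0.04 to 0.18, adjusted p = 0.156 by limma over all symbols). The adjusted p was 0.0329 after rescaling and 0.0221 after quantile normalization, with log2 differences of 0.14 and 0.18. Gabbr1 exceeded Gabbr2 in FPKM by 88.1-fold and 75.5-fold in the ferret libraries and by 181-fold and 250.0-fold in the mouse libraries. The partner subunits were thus far from equal in transcript level in all 4 libraries.

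Of the KCTD proteins, which bind GABA-B receptors and shape their response, Kctd12 had 6.37 and 6.27 FPKM in ferret and 9.19 and 8.52 FPKM in mouse astrocytes (log2 difference -0.43, adjusted p = 0.000299 by limma). After rescaling its adjusted p was 0.313 by limma. Kctd16 had 1.53 and 1.05 FPKM in ferret and 0.197 and 0.319 FPKM in mouse astrocytes, and its log2 difference stood at 0.86 (limma, adjusted p = 3.67e-05). It was 1.02 after rescaling and 1.13 after quantile normalization, past the limit for a call. Kctd16 entered the fit through its ferret level. The exons of mouse Kctd12 share 3805 bases with the opposite-strand transcript Gm26778 and those of Kctd16 share 360 bases with an antisense transcript, so these values are uncertain in the same way as that of Aldh5a1. On mouse GRCm38, Gabbr1 lies on chromosome 17 from 37045966 to 37075067 (plus strand) and Gabbr2 on chromosome 4 from 46662305 to 46991873 (minus strand).

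The 3 GABA-A subunit genes among the 9 were lower in ferret astrocytes. Gabrb1 encodes the beta-1 subunit, beta subunits being part of most GABA-A channels and of their GABA binding sites. It had 1.29 and 0.954 FPKM in ferret and 15.9 and 17.9 FPKM in mouse astrocytes. The log2 difference was -3.08 (SE 0.097, 95% interval -3.30 to -2.86, adjusted p = 1.23e-09 by limma), the largest in size of the 9 genes on the log2(FPKM + 1) scale. Under all 11 alternatives, some of which could not move it, it lay between -3.81 and -2.66. Its percentile among the shared symbols was 33.5 and 31.3 in the ferret libraries, against 70.4 and 72.9 in the mouse libraries.

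Gabra2 encodes the alpha-2 subunit. It had 0.401 and 0.332 FPKM in ferret and 3.13 and 3.87 FPKM in mouse astrocytes, giving a log2 difference of -1.71 (SE 0.095, adjusted p = 6.41e-08 by limma). With a pseudocount of 0.1 the log2 difference was -2.94. Gabrg1 encodes the gamma-1 subunit. It had 0.017 and 0.040 FPKM in ferret and 0.467 and 0.468 FPKM in mouse astrocytes, giving a log2 difference of -0.51 (95% interval -0.56 to -0.47, adjusted p = 0.000267 by limma over all symbols). With a pseudocount of 0.1 it was -2.15. The mean FPKM of Gabrg1 was 16.5-fold higher in mouse astrocytes, a larger ratio than the 15-fold of Gabrb1. Gabra2 and Gabrg1 were under 1 FPKM in ferret astrocytes, and the size of their difference rested on the pseudocount.

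The levels of the 9 genes followed the order Abat, Gabbr1, Aldh5a1, Maob, Gabrb1, Gabra2, Gabbr2, Slc6a11 and Gabrg1 in ferret astrocytes. In mouse astrocytes the order was Abat, Gabbr1, Gabrb1, Aldh5a1, Maob, Gabra2, Slc6a11, Gabrg1 and Gabbr2. FPKM is per kilobase, so these levels can be set beside each other within a species. The duplicates of neighbours in these orders did not overlap, except for Maob and Gabra2 in mouse astrocytes. Gabrb1 held place 3 in mouse and place 5 in ferret astrocytes.

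The summed FPKM of the GABA-A subunit genes was lower in the ferret libraries. The 18 subunit genes with a symbol in both species added up to 4.39 and 3.67 FPKM in the ferret libraries, against 29.8 and 34.5 FPKM in the mouse libraries, a 7.97-fold ratio of the means. Without Gabrb1 the remaining 17 genes summed to 2.91 ± 0.274 FPKM (SD, n = 2) in ferret and 15.3 ± 1.90 FPKM (SD, n = 2) in mouse astrocytes, a 5.24-fold ratio.

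Of the other subunit genes, 15 were measured in both species and 3 reached 1 FPKM in either. All 3 were called lower in ferret astrocytes, against 30.1% of the tested genes, but Gabra3 and Gabra4 entered the fit through their mouse level, so that being lower was largely built into their entry. Gabra3, the alpha-3 subunit, had 0.302 and 0.272 FPKM in ferret and 2.52 and 2.94 FPKM in mouse astrocytes (log2 difference -1.53, adjusted p = 6.10e-08 by limma). Gabra4, the alpha-4 subunit, had 0.067 and 0.020 FPKM in ferret and 1.52 and 2.36 FPKM in mouse astrocytes (log2 difference -1.48, adjusted p = 1.51e-06 by limma). Both stayed called after rescaling and quantile normalization. In the fit of all symbols, 7 of the 15 were lower and 2 higher in ferret astrocytes when judged by an adjusted p under 0.05 (limma), where 47.1% of all symbols were lower and 28.1% higher. Gabrp, the pi subunit, was among the higher ones and stood at 0.1045 FPKM or less in every library.

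The mix of subunits within a library, which a constant factor per library cannot move, also differed with FPKM as deposited. Gabrb1 made up 29.4% and 26.0% of the summed GABA-A subunit FPKM in the ferret libraries, against 53.3% and 51.9% in the mouse libraries. The species did not overlap in this share. The share of Gabra2 was 9.14% and 9.06% in ferret and 10.5% and 11.2% in mouse libraries. The lengths of the gene models still enter these shares.

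**Figure D3:**
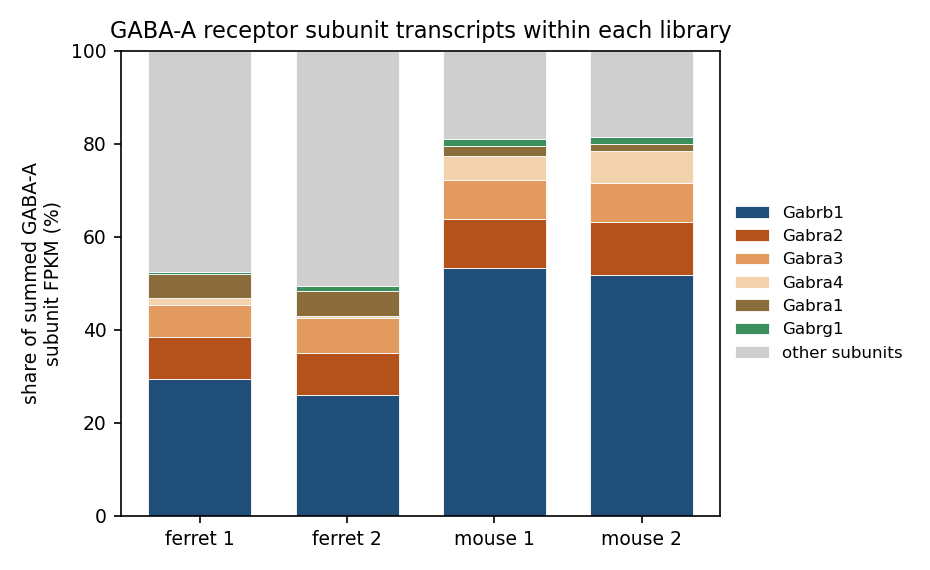
Share (%) of each GABA-A subunit gene in the summed FPKM of 18 subunit genes, one bar for each library. Gabrb1 (dark blue) takes 29.4% and 26.0% in the ferret and 53.3% and 51.9% in the mouse libraries.

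The 3 subunit genes among the 9 share a position that their selection by name did not use. In the mouse they lie in a cluster on chromosome 5 of GRCm38, with Gabrg1 from 70751047 to 70842617 (minus strand), Gabra2 from 70957597 to 71095849 (minus strand), Gabra4 from 71569749 to 71658308 (minus strand) and Gabrb1 from 71658113 to 72149037 (plus strand). All 4 receptor genes of the cluster had both ferret libraries under both mouse libraries, as did 52.9% of all shared symbols. Gabra4 and Gabrb1 start head to head, and their exons share 46 bases on opposite strands. Cox7b2, which lies between Gabra2 and Gabra4, had 0.550 FPKM in a ferret library and is listed at 0 in the other, with 0.144 and 0.303 FPKM in mouse astrocytes.

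The nearest genes outside the cluster with a symbol in both species differed among themselves. Commd8, the next gene after Gabrb1, had 4.55 and 3.91 FPKM in ferret and 40.2 FPKM in both mouse libraries (log2 difference -2.98, adjusted p = 3.13e-10 by limma). Atp10d after it was higher in ferret astrocytes, at 9.34 and 9.21 against 2.78 and 3.25 FPKM (log2 difference 1.36, adjusted p = 1.15e-07 by limma). On the other side, Gnpda2 and Guf1 had log2 differences of -0.61 and -0.70. Corin and Yipf7 were under 0.23 FPKM in all libraries.

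Genes for the trafficking and anchoring of GABA receptors were measured in both species for 6 of 6 names. At an adjusted p under 0.05 by limma 2 were higher and 4 lower in ferret astrocytes, against 32.4% and 56.2% of the tested genes. Gphn, the scaffold gephyrin, had 6.39 and 5.999 against 8.18 and 9.27 FPKM (log2 difference -0.43, adjusted p = 0.000570 by limma), with an adjusted p of 0.318 by limma after rescaling. Nlgn2, an adhesion protein of inhibitory synapses, had 9.97 and 11.0 against 16.4 and 15.9 FPKM. Its log2 difference was -0.58, and -0.22 after rescaling. Gabarapl2 was higher in ferret astrocytes, at 137 and 141 against 75.8 and 78.1 FPKM (log2 difference 0.84), as was Gabarapl1 at a log2 difference of 0.24, while Gabarap was lower at -0.75. After rescaling, Gabarapl2 stood at 1.23, past the limit for a call, Gabarapl1 at 0.63 and Gabarap at -0.36. These GABARAP proteins are also part of the autophagy machinery.

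Slc12a2 encodes NKCC1, which carries chloride into the cell and so bears on the direction of current through GABA-A channels. It was called lower in ferret astrocytes, at 7.74 and 7.09 FPKM against 25.7 and 24.7 FPKM in mouse astrocytes (log2 difference -1.64, SE 0.069, adjusted p = 9.09e-09 by limma), and it was -1.28 after rescaling. Slc12a5, which encodes the chloride exporter KCC2 of mature neurons, had 0.096 and 0.131 against 0.769 and 0.858 FPKM.

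Across the 39 other pathway genes listed, 35 had a symbol in both species and 18 passed the limit of 1 FPKM. Among these 18, 2 were called higher and 7 lower in ferret astrocytes, with 13.1% and 30.1% of all tested genes as background. Gad1, Kctd16, Gabra3 and Gabra4 among them had entered through the species in which they were high. After either scaling 4 were called higher and 3 lower. Their median log2 difference was -0.58, and that of all tested genes was -0.35.

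**Figure D4:**
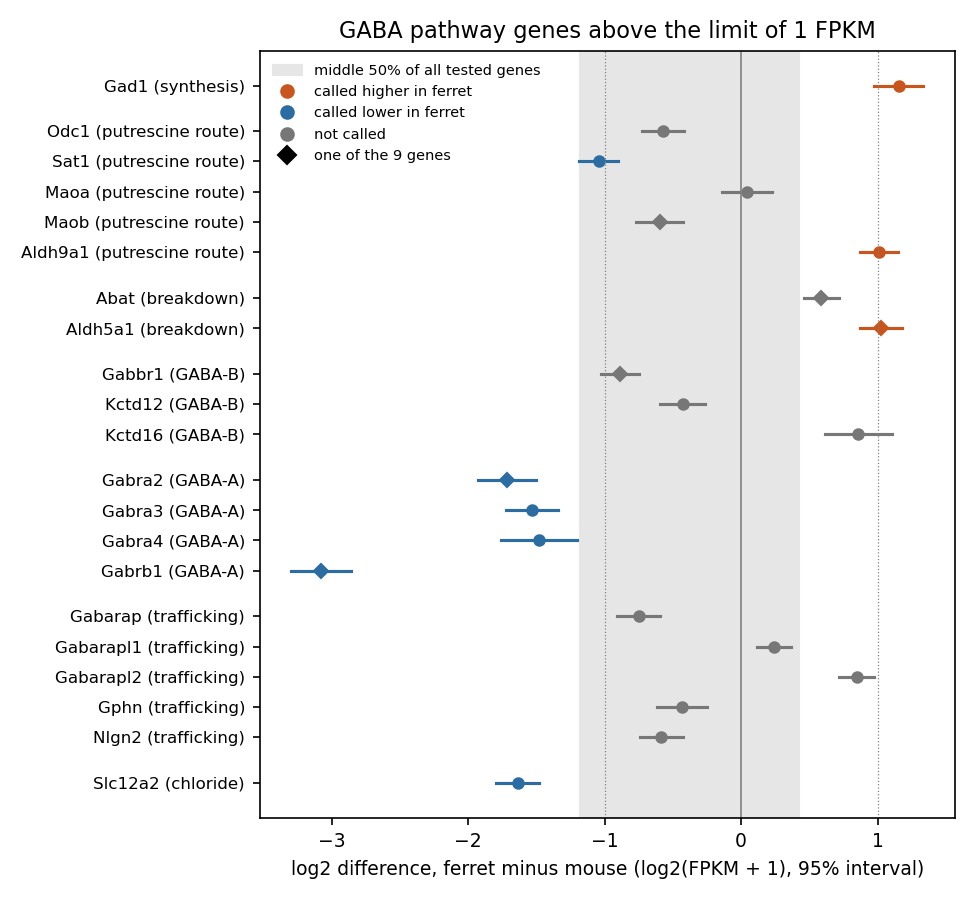
Log2 difference (ferret minus mouse, on log2(FPKM + 1), 95% intervals from limma) of GABA pathway genes that passed the limit of 1 FPKM, with diamonds for genes among the 9 and colours for calls. The grey band is the middle 50% of all tested genes, from -1.18 to 0.42, and dotted lines mark -1 and 1. The 4 GABA-A subunit genes shown lie left of the band, and Gad1, Aldh9a1, Aldh5a1 and Abat are among the genes right of it.

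Markers of other cells differed between the libraries as well, and their counts stand beside 30.1% of the tested genes called lower and 13.1% called higher. The 9 microglial markers measured in both species summed to 5.36 and 4.66 FPKM in ferret and 460.1 and 448 FPKM in mouse libraries, and all 9 were called lower in ferret astrocytes, although 8 of them entered the fit through their mouse level alone, which built the direction in. The most abundant were Cd68 in ferret and Tyrobp in mouse astrocytes, and Cx3cr1 is listed at 0 in both ferret libraries. C1qa, also of this list, had no matching ferret symbol and stood at 193.1 and 192.8 FPKM in the mouse libraries. The 8 meningeal fibroblast markers summed to 127 and 112 FPKM in ferret and 1576 and 1550 FPKM in mouse libraries, led by Col1a2 and by Serpinf1, and all 8 were called lower in ferret astrocytes, 3 of them (Lum, Serpinf1 and Pcolce) having entered through their mouse level alone.

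The 9 oligodendrocyte lineage markers measured in both species summed to 169 and 188 FPKM in ferret and 69.0 FPKM in both mouse libraries, led by Cnp in both species, with 7 of the 9 higher and 2 lower in both ferret than in both mouse libraries (33.2% and 52.9% of all shared symbols). Olig1, also of this list, had no matching ferret symbol and stood at 107.4 and 116.9 FPKM in the mouse libraries, more than the mouse sum of the other 9, so the sums give no direction for the whole list. The 6 neuron markers measured in both species summed to 30.8 and 31.6 FPKM in ferret and 32.1 and 33.3 FPKM in mouse libraries. Map2, at 18.8 and 19.03 against 30.4 and 31.3 FPKM, led the sum in both species and was lower in ferret astrocytes with Rbfox3, whereas Dcx, Nefl, Syt1 and Snap25 were higher without overlap. Stmn2, a listed neuron marker with no matching ferret symbol, stood at 123.6 and 127.4 FPKM in the mouse libraries, above this sum. Of the 5 endothelial markers, Pecam1, Cdh5 and Tek are listed at 0 in both ferret libraries and Cldn5 in both mouse libraries, while Cdh5 had 22.0 and 22.5 FPKM in mouse astrocytes. The 12 astrocyte markers summed to 3766 and 3881 FPKM in ferret and 3832 and 4151 FPKM in mouse libraries, led by Aldoc and by Gfap, with 7 called lower and 1 higher in ferret astrocytes. Slc1a2, among the 7, entered the fit through its mouse level alone, which built its direction in. The part of any of these cells in the levels of the GABA genes was not tested.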

How the data were processed

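RNA of 2 ferret and 2 mouse astrocyte libraries was sequenced by the authors, who aligned the reads with STAR (version 2.7.0f) to each species' Ensembl genome (MusPutFur1.0 and GRCm38) and deposited one FPKM value for each gene and library from Cufflinks (version 2.2.1). Read counts were not used here, so values carry no counting interval. Symbols were matched in upper case. Where a symbol had several values (7 in ferret, 13 in mouse), the one with the highest mean was kept, which touched none of the 9 genes. Log2(FPKM + 1) was fitted with limma (version 3.58.1, R 4.3.3, empirical Bayes with trend), with Benjamini-Hochberg adjustment over all genes tested. Alternatives were a pseudocount of 0.1, no filter, rescaling, quantile normalization, replicate number as a block, summed values, no trend and each library left out. Mouse positions are from GENCODE M21 on GRCm38, a release other than the authors'. Ferret positions were not used here. The genes and lists were chosen by function with earlier results of these data known. The genes named were the 9, the pathway genes reaching a mean of 1 FPKM, the leading or absent markers and the genes of most similar level. Other pathway genes, Npy, Dlx2, Dcx, Nefl, Syt1, Snap25, Lum, Pcolce, Olig1, Stmn2, C1qa and the neighbours of the cluster, were named after their values were seen. Some genes of the pathway are not reported here by name, although they enter the counts and sums.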

Additional observations from a re-analysis of the deposited data

How the results depend on the processing

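Of 168 values computed under the alternatives, 159 kept their direction and their side of the threshold, or stayed within 1.5 times the count or the spread between duplicates, and none reversed. Part of this could not turn out otherwise. Each of the 9 genes had a single value per library, so summing left them unchanged. The replicate block, the trend and the filter cannot move a log2 difference here. After quantile normalization 2109 genes in place of 1336 were called higher in ferret astrocytes. After quantile normalization and after rescaling, 4 in place of 2 of the other pathway genes were called higher and 3 in place of 7 lower. With a pseudocount of 0.1, Slc6a11 (-1.62) and Gabrg1 (-2.15) passed the log2 limit. With each library left out in turn, the log2 difference of Aldh5a1 ranged from 0.98 to 1.07, and the number of the 9 genes called higher from 0 to 1, the call being lost without mouse replicate 1. The cause of these shifts was not tested. Leaving out a library assumes that the lone library of its species varies like the others. The labels share replicate numbers across species, but deviations of same-numbered libraries did not correlate over 10204 genes (r = 0.01), so nothing shows that they are paired. A single deviation per species cannot exclude a pairing. The replicate block cannot move a log2 difference when both numbers occur in each species, so Gabrb1 was again at -3.08. Only the adjusted p could change, and the calls among the 9 genes were 1 higher and 2 lower. Read counts were not used here, so the counting error of Slc6a11, Gabbr2 and Gabrg1, all under 1 FPKM, is not given.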

Other observations

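Some GABA pathway genes had a mouse value and no matching symbol in the ferret values used here. Dbi, which encodes a ligand of the benzodiazepine site of GABA-A receptors and an acyl-CoA binding protein, stood at 2130 and 2259 FPKM in the mouse libraries, above every gene of the pathway compared between the species. The GABA-B receptor partners Kctd12b, at 3.57 and 3.66 FPKM, and Kctd8, at 0.743 and 0.546 FPKM, and the gamma-3 subunit gene Gabrg3, at 0.148 and 0.184 FPKM, were also read in mouse astrocytes alone.

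The tested genes closest to Aldh5a1 in log2(FPKM + 1) over the 4 libraries were Dock5, Wdr73 and Slc17a5, at Euclidean distances of 0.077, 0.116 and 0.118. Slc17a5, which encodes the lysosomal sialic acid exporter sialin, had 14.63 and 14.55 FPKM in the ferret libraries, against 7.06 and 7.57 FPKM in the mouse libraries. The genes closest to Gabrb1 were Gprasp1, Chm and Mamdc2, at distances of 0.278, 0.291 and 0.293. Gprasp1, which encodes a protein that sorts G protein-coupled receptors to lysosomes, had 1.38 and 1.34 FPKM in ferret and 16.8 and 17.8 FPKM in mouse astrocytes. With 4 libraries, likeness of this kind describes the levels alone.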
